A study of Homo sapiens with 24 samples.

Results

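The 8 genes described here are the secreted ligands NELL1 and NELL2, the secreted ligands SLIT1, SLIT2 and SLIT3, and the receptors ROBO1, ROBO2 and ROBO3. They were picked by gene symbol from the 62757 genes of the deposited count table, and all 8 passed the filter on low counts that left 17724 genes for testing. The choice was made with earlier results in view. NELL2 was taken to have stood out there in 1 comparison of ventricular-type cultures. It was also taken to have stood out in the difference between that comparison and its atrial-type counterpart. The values of both are given below as a description with no test.

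The libraries came from human embryonic stem cells of the HES3 line carrying GFP at NKX2-5 and mCherry at NR2F2, grown as embryoid bodies through a Wnt-modulating cardiac differentiation of up to 14 days. AM cultures received retinoic acid at day 4 and VM cultures did not. The labels do not spell out these letters; since retinoic acid marks the atrial condition, AM was taken as atrial and VM as ventricular. In each protocol the cells had been treated with CRISPR-Cas9 against LHX2, ZNF503 or ZNF711, or against TRAC, a T cell receptor gene that served as the control target. This gives 8 groups of 3 libraries, 24 in all. The control cells therefore also carry both reporters and a cut locus, and the labels give neither the clones nor how the 3 replicates of a group were separated, so that p-values measure the spread between these libraries, which may be technical.

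SLIT proteins are large secreted proteins that bind ROBO receptors at the cell surface. They are best known for repelling axons at the midline of the nervous system, and in the embryonic heart SLIT-ROBO signalling has a part in forming the chambers, valves and septa. NELL1 and NELL2 are secreted glycoproteins with thrombospondin-like and EGF-like domains. NELL2 binds ROBO3 and repels commissural axons, and NELL1 is known for promoting bone formation.

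Total counts ran from 2899786 to 7438010 per library with a median of 5113566, and 3 counts corresponded to 0.403 to 1.03 counts per 1000000 (CPM). No 2 libraries of a group agreed within sampling noise. The summed level of 10 cardiomyocyte markers, from TNNT2 to TNNI1, was 15228 to 30175 CPM in AM and 11809 to 42310 CPM in VM, with none of the 10 at 0 in any group. Replicate 3 of VM TRAC, VM LHX2 and VM ZNF503 and all 3 VM ZNF711 libraries had less of these markers (11809 to 21014 CPM) than the other 6 VM libraries (37071 to 42310 CPM). The same 6 libraries had more of 10 endoderm markers, from AFP to HNF4A (9466 to 25628 CPM against 1616 to 3603 CPM). RNA of the targeted genes did not follow the labels throughout. The libraries labelled ZNF503 had more ZNF503 RNA than the control, 297 ± 60.7 against 112 ± 9.79 CPM in AM and 35.7 ± 14.4 against 13.2 ± 3.91 CPM in VM (SD, n = 3 each). ZNF711 RNA stood at 30.9 ± 4.34 CPM in VM ZNF711 libraries against 40.0 ± 7.06 CPM in VM TRAC, and LHX2 was barely counted. Counts over a whole gene need not show a small deletion.

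SLIT2 and SLIT3 are close relatives that behaved differently here, so their promoters are shown first. RefSeq holds promoter windows, 250 bases before to 50 bases after a start site, for 6 of the 8 genes (10 windows), and none for NELL1 or NELL2 in the table used. Capitals mark the letters TATAA.
SLIT2: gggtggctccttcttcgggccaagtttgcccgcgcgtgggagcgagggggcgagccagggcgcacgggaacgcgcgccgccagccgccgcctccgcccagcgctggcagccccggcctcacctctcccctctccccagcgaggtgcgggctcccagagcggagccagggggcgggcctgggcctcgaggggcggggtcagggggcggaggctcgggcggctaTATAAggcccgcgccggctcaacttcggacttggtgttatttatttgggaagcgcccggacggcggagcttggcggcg
SLIT3: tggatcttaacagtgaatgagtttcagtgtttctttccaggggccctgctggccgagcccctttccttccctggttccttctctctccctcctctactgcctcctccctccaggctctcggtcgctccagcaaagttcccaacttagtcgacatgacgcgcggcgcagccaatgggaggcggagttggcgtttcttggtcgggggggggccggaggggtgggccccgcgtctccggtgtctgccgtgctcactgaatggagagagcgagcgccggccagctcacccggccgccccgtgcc
The SLIT2 window is chr4:20251655-20251954 (GRCh38.p14, plus strand) and the SLIT3 window is chr5:169301090-169301389 (GRCh38.p14, minus strand). The SLIT2 window holds 36 CpG dinucleotides, more than 87.5% of the windows of 27305 genes (1 window per gene), and the SLIT3 window holds 22, more than 62.4% of them. The median over all windows was 14. In the SLIT2 window TATAA begins at position -28 from the start site. The letters TATAA, searched on both strands after the sequence had been seen, occur in 21.1% of the 27305 windows and in none of the other 9 windows of the ROBO and SLIT genes. Half-sites of the kind that nuclear receptors bind were searched on both strands as well. AGGTCA was found in none of the 10 windows (13.9% of all windows hold it), and AGTTCA was found once in 1 of 2 ROBO2 windows and once in 1 of 3 ROBO3 windows (10.5% of all). A direct repeat of AGGTCA with 5 bases between the copies (0.00366% of all windows) and the letters AGGCCT (11% of all) were in none of the 10. These are matches of letters in short windows only.

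SLIT2 and SLIT3 also carry a copy each of the same microRNA inside their introns. The mature microRNA, hsa-miR-218-5p, is identical from MIR218-1 in SLIT2 (chr4:20528299-20528319, plus strand) and from MIR218-2 in SLIT3 (chr5:168768211-168768231, minus strand), both GRCh38.p14. It is shown with its seed, bases 2 to 8, in capitals.
hsa-miR-218-5p: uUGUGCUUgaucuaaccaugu
Libraries of this kind do not measure mature microRNAs, and MIR218-1 and MIR218-2 had 0 to 12 and 0 to 9 counts per library.

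Compared per kilobase of exon, which allows levels to be set between genes, SLIT2 led in AM and SLIT3 in VM. In AM the mean order was SLIT2 (110.5 CPM per kb), SLIT3 (27.7), ROBO1 (14.3), NELL1 (7.04), NELL2 (4.54), ROBO2 (2.42), SLIT1 (0.916) and ROBO3 (0.450). Neighbours in this order had overlapping ranges over the 12 libraries only for NELL1 with NELL2 and for SLIT1 with ROBO3. In VM the mean order was SLIT3 (26.5 CPM per kb), SLIT2 (18.8), ROBO1 (16.9), ROBO2 (3.24), SLIT1 (0.716), NELL2 (0.636), ROBO3 (0.608) and NELL1 (0.428). There only ROBO1 over ROBO2 and ROBO2 over SLIT1 were without overlap. SLIT3 nevertheless exceeded SLIT2 in 12 of 12 VM libraries, and SLIT2 exceeded SLIT3 in 12 of 12 AM libraries. NELL2, ranked above ROBO3 by the VM mean, exceeded ROBO3 in only 4 of 12 VM libraries. The ZNF711 libraries held the highest VM values of NELL2.

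The makeup of the ligand pool differed between protocols while that of the receptor pool did not separate. SLIT2 made up 75.1% to 83.8% of the summed SLIT level per kb in AM (median 79.5%) and 28.1% to 48.8% in VM (median 45.5%). ROBO1 made up 78.4% to 87.5% of the summed ROBO level in AM and 76.9% to 86.4% in VM. The ratio of summed SLIT to summed ROBO per kb was 6.54 to 9.56 in AM (median 8.10) and 1.64 to 2.93 in VM (median 2.33), so that the lowest AM library lay above the highest VM library.

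**Figure D1:**
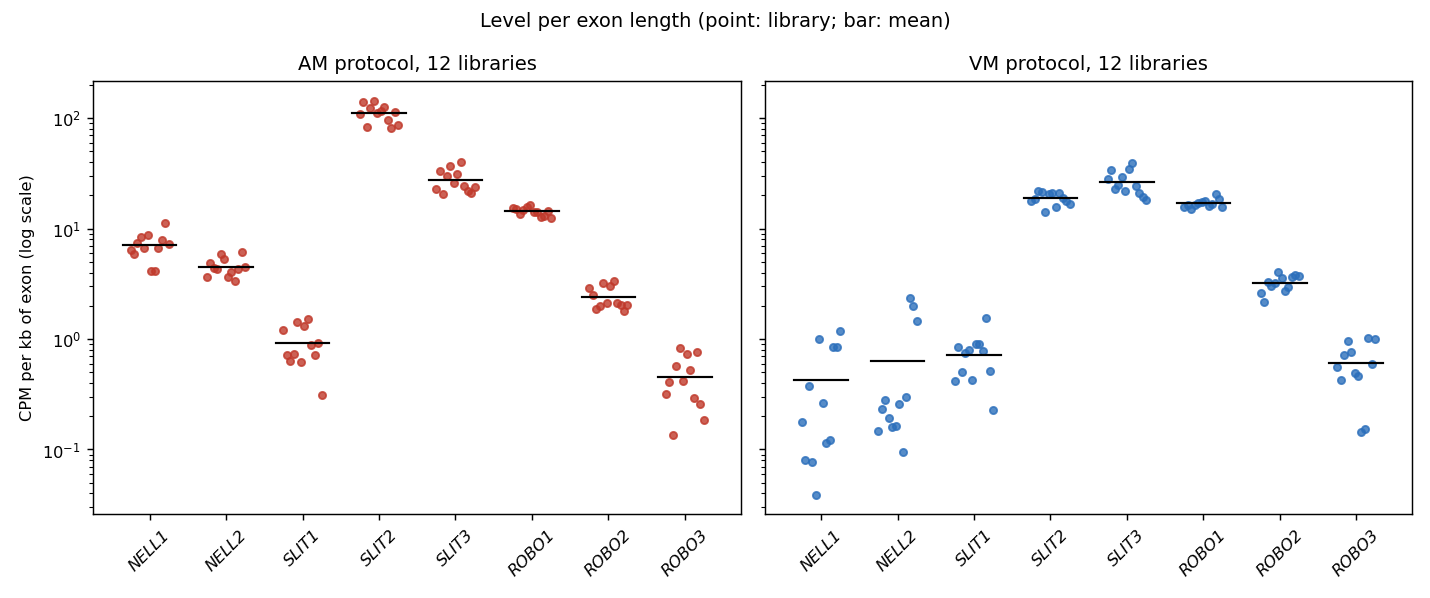
Level of each gene per kilobase of exon on a log axis, in the 12 AM libraries (left) and the 12 VM libraries (right), with 1 point per library and a bar at the mean. SLIT2 lies highest in AM and SLIT3 highest in VM, and the 3 highest VM points of NELL2 are the ZNF711 libraries.

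The protocol comparisons ask how AM and VM cultures differ within the same target. SLIT2, NELL1 and NELL2 were higher in AM in each of the 4 targets, and SLIT3, SLIT1 and ROBO3 were called in none. In TRAC 3 of the 8 genes were called at an edgeR adjusted p below 0.05, all 3 higher in AM, against 11.3% of all genes called and 6.18% called higher. In LHX2 it was 3 of 8, all higher (8.56% of all genes called, 4.68% higher), and in ZNF503 3 of 8, all higher (8.86% called, 4.77% higher), and under a replicate block or DESeq2 ROBO1 was called lower as well. In ZNF711 it was 5 of 8 (13.2% called), with the same 3 higher (6.81% of all genes) and ROBO1 and ROBO2 lower (6.42% of all genes). In the mean of the 4 differences 5 of 8 were called (34.5% of all genes), the same 3 higher (16.8%) and ROBO1 and ROBO2 lower (17.6%). The comparisons in TRAC and ZNF711, and so the mean of the 4, share VM libraries with the comparison in which NELL2 was first noticed. NELL2 in those counts is therefore a description and no independent result. The comparisons in LHX2 and ZNF503 share no such library. Their mean alone called 3 of 8 genes, all higher, against 18.6% of all genes called and 9.65% higher. In bulk cultures fewer cells of a type and less RNA per cell cannot be told apart. Markers of other cell types also differed between protocols. The summed level of 10 endoderm markers was 273 to 1874 CPM in AM and 1616 to 25628 CPM in VM, and that of 10 epicardial markers was 82.8 to 221 CPM in AM and 38.4 to 107 CPM in VM. The epicardial sums overlapped in ZNF711, at 82.8 to 127 CPM in AM and 94.5 to 107 CPM in VM. In the mean of the 4 targets edgeR called 1 endoderm marker higher and 5 lower in AM, and 4 epicardial markers higher and 1 lower. It called 4 fibroblast markers higher and 1 lower, 6 endothelial and 3 neural markers all higher, 6 cardiomyocyte markers all lower, and 2 smooth muscle markers higher and 3 lower. In ZNF711 alone 2 cardiomyocyte markers were called higher and 1 lower, with a median log2 difference of 0.59. That median was -0.79 in TRAC, -0.72 in LHX2 and -0.98 in ZNF503. The fibroblast and neural medians in ZNF711 were 0.02 and -0.10. The part of these cell types in the differences below was not tested.

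SLIT2 (chromosome 4, 20253260 to 20620561, plus strand, GENCODE 29 on GRCh38) was the most abundant of the 8 genes in AM. Its level was 1190, 1398 and 1074 CPM in AM TRAC, 1051, 1351 and 811 CPM in AM LHX2, 1118, 1233 and 931 CPM in AM ZNF503 and 790, 1098 and 837 CPM in AM ZNF711. In VM it was 209, 136 and 202 CPM in TRAC, 174, 179 and 214 CPM in LHX2, 204, 152 and 205 CPM in ZNF503 and 184, 173 and 163 CPM in ZNF711. The lowest AM library thus stood far above the highest VM library. The fitted log2 difference was 2.74 (SE 0.20) in TRAC, 2.50 (SE 0.20) in LHX2, 2.55 (SE 0.20) in ZNF503 and 2.39 (SE 0.20) in ZNF711. The edgeR adjusted p-values were 7.03e-10, 4.34e-09, 3.04e-09 and 1.07e-08. Averaged over the 4 targets the fold was 5.84 (log2 2.55, SE 0.10, edgeR adjusted p 4.15e-16). SLIT2-IT1, an intronic transcript on the strand of SLIT2, was at 1.63 to 10.1 CPM in AM and 0 to 1.85 CPM in VM. It lies within SLIT2, so reads from unspliced SLIT2 RNA and from this transcript cannot be told apart.

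SLIT3 (chromosome 5, 168661733 to 169301129, minus strand) was nearly level between protocols. It stood at 428, 528 and 367 CPM in AM TRAC and at 357, 423 and 314 CPM in VM TRAC, and those ranges overlap. Over all libraries it ran from 291 to 578 CPM in AM (median 358) and from 257 to 558 CPM in VM (median 350). The mean log2 difference over the 4 targets was 0.07 (SE 0.10, edgeR adjusted p 0.641). SLIT1 (chromosome 10, 96998038 to 97185920, minus strand) was low, at 2.86 to 13.9 CPM in AM and 2.09 to 14.1 CPM in VM. Its mean log2 difference was 0.34 (SE 0.25, edgeR adjusted p 0.325), with 10 to 83 counts per library. Leaving out VM ZNF711 replicate 1, its highest VM library, brought SLIT1 to 0.60 with an edgeR adjusted p of 0.0419. A gene on the same strand, ARHGAP19-SLIT1, overlaps SLIT1 and held 34 counts over all libraries. How reads shared by both genes were counted is not known.

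NELL1 (chromosome 11, 20669551 to 21575681, plus strand) was clearly present in AM and near the detection limit in most VM libraries. In AM its level was 44.3, 35.7 and 46.1 CPM in TRAC, 33.7, 31.0 and 39.0 CPM in LHX2, 21.7, 21.8 and 35.5 CPM in ZNF503 and 41.5, 59.8 and 38.3 CPM in ZNF711. In VM it was 0.410, 0.206 and 5.36 CPM in TRAC, 0.940, 0.425 and 2.001 CPM in LHX2, 1.41, 0.613 and 0.645 CPM in ZNF503 and 4.45, 4.51 and 6.27 CPM in ZNF711. The ranges of AM and VM were apart in every target, and 3 of the 12 VM libraries had fewer than 3 counts. The log2 difference was 4.24 (SE 0.53) in TRAC, 4.91 (SE 0.59) in LHX2, 4.87 (SE 0.62) in ZNF503 and 3.19 (SE 0.49) in ZNF711. The edgeR adjusted p-values were 1.01e-05, 7.09e-06, 1.38e-05 and 0.000141. Without VM TRAC replicate 3, which held 36 of the NELL1 counts in VM TRAC against 2 and 1 in the others, the difference in TRAC was 6.98. That fitted value rests on 3 counts in VM and is no measure of size. Without VM LHX2 replicate 3 the difference in LHX2 was 5.59. The NELL1 counts were 5, 2 and 10 in VM LHX2 and 6, 3 and 3 in VM ZNF503. The fitted sizes in these 2 targets therefore also rest on few counts.

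NELL2 (chromosome 12, 44508275 to 44921848, minus strand) had a similar pattern with a clear exception. In AM it stood at 27.8, 37.9 and 34.1 CPM in TRAC, 23.4, 31.3 and 28.1 CPM in LHX2, 23.6, 25.8 and 21.5 CPM in ZNF503 and 27.8, 39.3 and 29.1 CPM in ZNF711. In VM it stood at 1.23, 1.03 and 1.04 CPM in TRAC, 0.940, 1.49 and 1.80 CPM in LHX2, 1.64, 0.613 and 1.93 CPM in ZNF503 and 15.1, 12.8 and 9.40 CPM in ZNF711. The 3 VM ZNF711 libraries lie between the AM libraries and the other 9 VM libraries, which ran from 0.613 to 1.93 CPM. The log2 difference between protocols was 4.28 (SE 0.32) in LHX2 and 4.07 (SE 0.32) in ZNF503, with edgeR adjusted p-values of 8.35e-10 and 2.77e-09. It was 4.89 (SE 0.32) in TRAC and 1.37 (SE 0.25) in ZNF711. No p is given for TRAC and ZNF711, since they share libraries with the contrasts that NELL2 was chosen on.

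**Figure D2:**
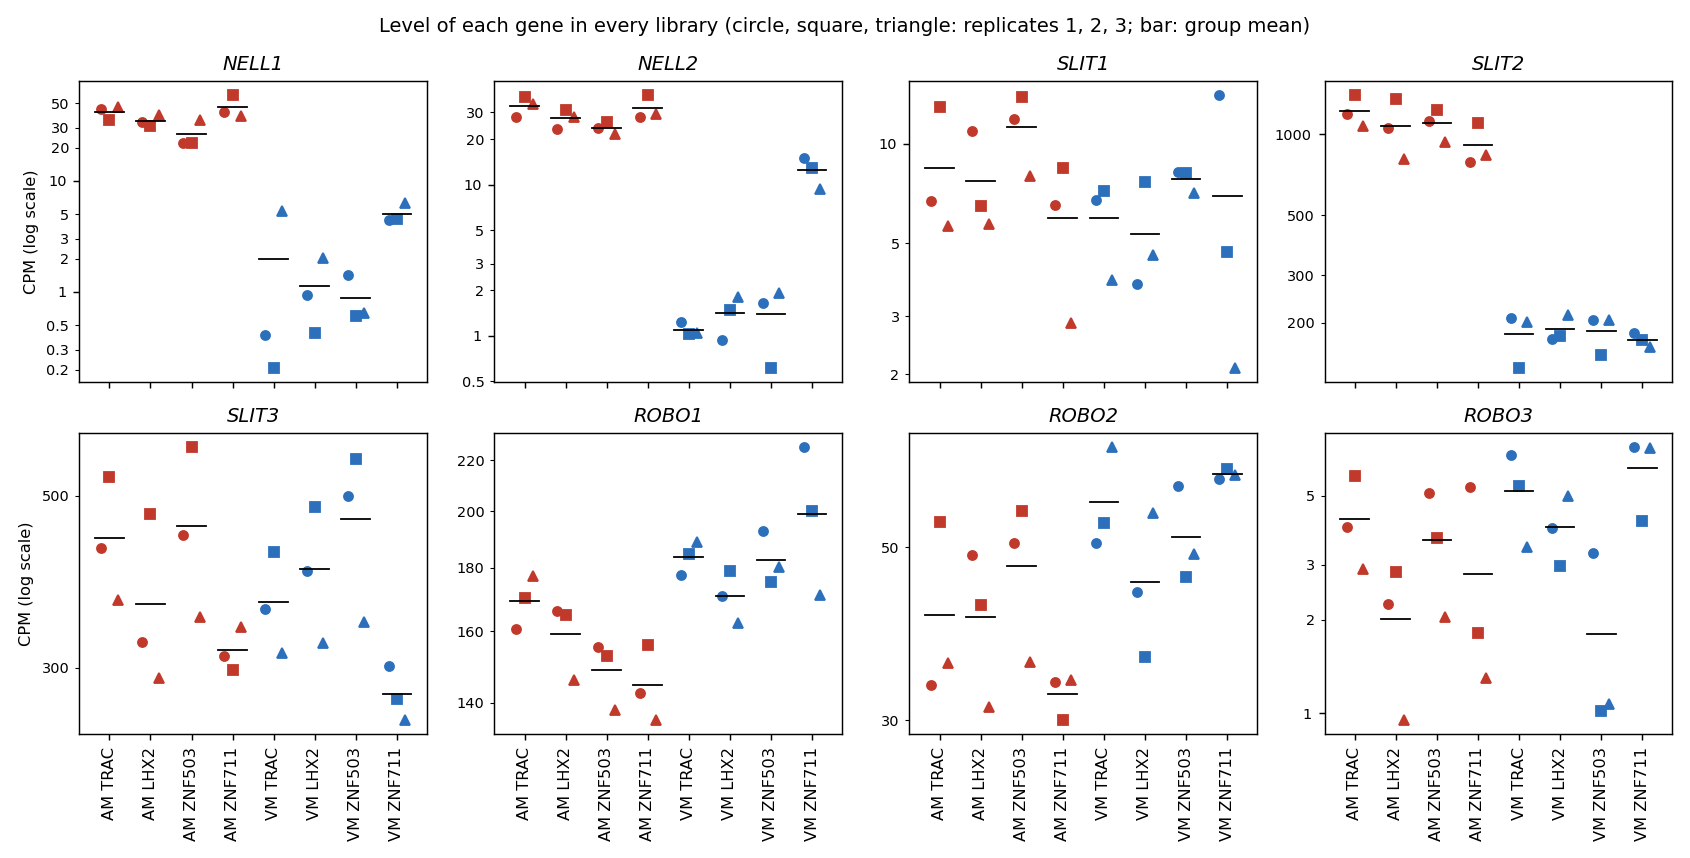
Level of each of the 8 genes in every library, in CPM on a log axis whose range differs between panels, with red for AM and blue for VM, a symbol for each replicate number and a bar at the group mean. SLIT2, NELL1 and NELL2 are higher in AM in every target, and NELL2 in VM ZNF711 (9.40 to 15.1 CPM) lies above the other VM groups.

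The fitted differences of the receptors were smaller in size than those of SLIT2, NELL1 and NELL2. ROBO1 (chromosome 3, 78597240 to 79767815, minus strand), the main ROBO receptor here, was at 160.5, 170 and 177 CPM in AM TRAC and at 178, 185 and 189 CPM in VM TRAC. In AM ZNF711 it was at 143, 156 and 136 CPM and in VM ZNF711 at 226, 200.3 and 171 CPM, with no overlap in either target. Of all tested genes, 26.1% had no overlap between AM and VM in TRAC and 32.9% had none in ZNF711. The log2 difference was -0.12 (SE 0.11, edgeR adjusted p 0.603) in TRAC and -0.46 (SE 0.12, edgeR adjusted p 0.00905) in ZNF711. The ROBO1 call in ZNF711 was lost without AM ZNF711 replicate 3 (edgeR adjusted p 0.0557) and without VM ZNF711 replicate 1 (edgeR adjusted p 0.0818). In ZNF503 ROBO1 was at 155, 153 and 138 CPM in AM and at 193, 175 and 180.5 CPM in VM, without overlap (23.5% of all genes). The log2 difference there was -0.30 (SE 0.12, edgeR adjusted p 0.120), with an edgeR adjusted p of 0.0357 under the replicate block and 0.0448 by DESeq2. Over the 4 targets ROBO1 was lower in AM by a mean fold of 1.18 (log2 -0.24, SE 0.06, edgeR adjusted p 0.00160). In the mean of LHX2 and ZNF503 alone the value was -0.20 (SE 0.08, edgeR adjusted p 0.0923), and 0.0292 with a replicate block.

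ROBO2 (chromosome 3, 75906695 to 77649964, plus strand), the second receptor by level, was at 33.5, 30.0 and 33.8 CPM in AM ZNF711 and at 61.1, 63.0 and 61.9 CPM in VM ZNF711. In TRAC it was at 33.3, 53.9 and 35.5 CPM in AM and 50.7, 53.6 and 67.2 CPM in VM, which overlap. The log2 difference was -0.93 (SE 0.21, edgeR adjusted p 0.00386) in ZNF711 and -0.48 (SE 0.20, edgeR adjusted p 0.139) in TRAC. Without AM TRAC replicate 2, its highest AM TRAC library, ROBO2 reached -0.73 in TRAC (edgeR adjusted p 0.0432). The mean over the 4 targets was -0.42 (SE 0.10, edgeR adjusted p 0.00223), and without replicate 3 of every group it was -0.26 with an edgeR adjusted p of 0.105. In the mean of LHX2 and ZNF503 alone it was -0.14 (SE 0.15, edgeR adjusted p 0.584). Whether the ROBO2 difference itself varies between ZNF711 and TRAC belongs to a contrast that the choice of genes used, and the 2 values are given side by side. ROBO3 (chromosome 11, 124865386 to 124881470, plus strand), the receptor that NELL2 binds, was the least counted receptor, with 5 to 37 counts per library. It stood at 0.951 to 5.78 CPM in AM and 1.02 to 7.17 CPM in VM, and its mean log2 difference was -0.34 (SE 0.28, edgeR adjusted p 0.381). The sign varied between targets. The difference was -0.28 (SE 0.53) in TRAC and -1.01 (SE 0.58) in LHX2. It was 1.02 (SE 0.58) in ZNF503 and -1.10 (SE 0.55) in ZNF711.

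**Figure D3:**
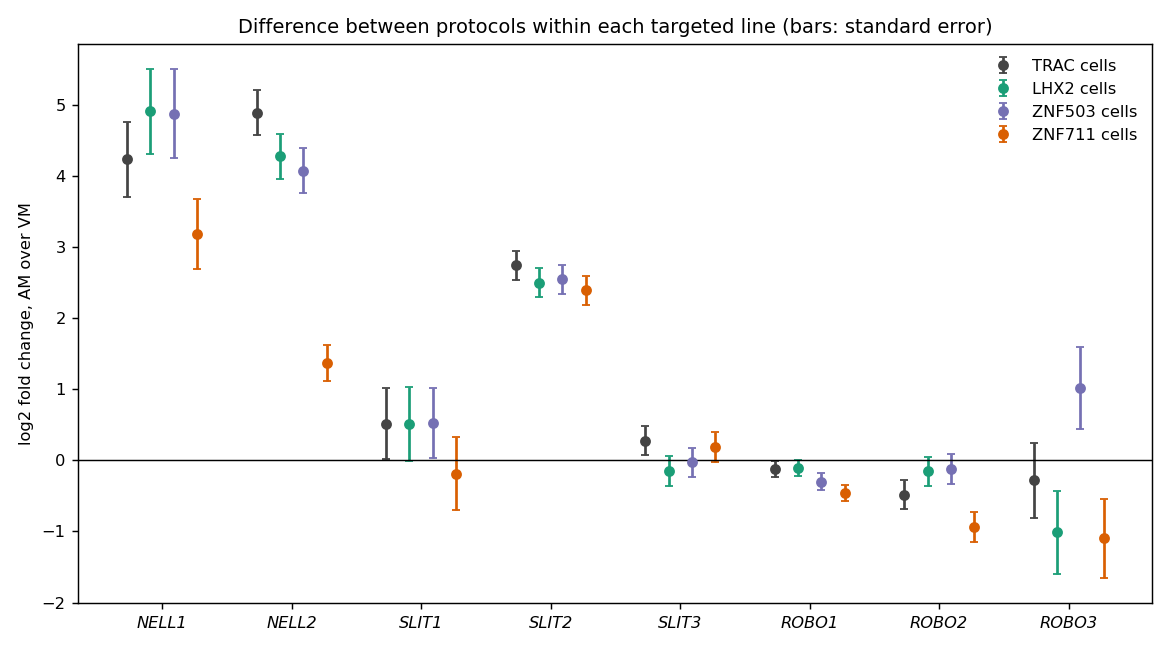
Fitted log2 fold change of AM over VM for each gene within each target, with bars of 1 standard error and a line at 0. NELL1, NELL2 and SLIT2 lie above 0 in all 4 targets, SLIT3 stays within 0.28 of 0, and NELL2 in ZNF711 (1.37) is lower than in the other targets (4.07 to 4.89).

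NELL2 in VM ZNF711 cultures is the observation that led to these genes, and the following values describe it without a test. Mean NELL2 was 12.4 ± 2.86 CPM in VM ZNF711 and 1.10 ± 0.112 CPM in VM TRAC (SD, n = 3 each), a ratio of 11.3. The counts behind these values were 61, 68 and 45 against 6, 5 and 7. The fitted log2 difference was 3.47 (SE 0.33), and 3.28 to 3.63 when 1 library was left out. In AM the same contrast gave -0.05 (SE 0.24). VM ZNF711 reached 38.7% of the AM ZNF711 mean. The share of all genes called in this comparison was 0.0169%, and in the difference of the contrast between AM and VM it was 0.00564%. The choice of genes used both.

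The related ligand NELL1 was at 5.08 ± 1.03 CPM in VM ZNF711 and 1.99 ± 2.92 CPM in VM TRAC (SD, n = 3 each). The libraries overlap, since VM TRAC replicate 3 stood at 5.36 CPM. The fitted log2 difference was 1.19 (SE 0.57), and 3.92 without VM TRAC replicate 3. SLIT3 was lower in all 3 VM ZNF711 libraries (302, 273 and 257 CPM) than in the VM TRAC libraries (357, 423 and 314 CPM), with a log2 difference of -0.39 (SE 0.21). Of all genes 4.72% lay wholly lower and 5.41% wholly higher in this comparison, and NELL2 lay wholly higher. The other 5 genes had log2 differences between -0.07 and 0.25 with overlapping libraries.

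The levels of cell type markers in the same VM libraries are set beside the NELL values here, because they varied between libraries of a group. The summed endoderm level was 9466, 17792 and 25628 CPM in VM ZNF711 and 3603, 3145 and 24374 CPM in VM TRAC, which overlap, and the median log2 difference over the 10 markers was 0.73. VM TRAC replicate 3, with a sum of 24374 CPM, held NELL1 at 5.36 CPM and NELL2 at 1.04 CPM. VM ZNF503 replicate 3, with an endoderm sum of 16737 CPM, held NELL1 at 0.645 CPM and NELL2 at 1.93 CPM. None of the 10 endoderm markers was at 0 in a group. The summed level of 10 neural markers was 529 to 611 CPM in VM ZNF711 and 468 to 700.3 CPM in VM TRAC, where NEUROD1 and SOX1 were at 0. Sums follow the most abundant markers, and the median log2 difference over the 7 neural markers tested was 0.80. It was 0.80 over 8 epicardial, 0.58 over 10 fibroblast and -0.71 over 10 cardiomyocyte markers, against -0.01 over all genes. Fibroblast markers summed to 12779 to 15896 CPM in VM ZNF711 and 7272 to 17090 CPM in VM TRAC. The part of other cell types in the NELL1 and NELL2 values was not tested. NR2F2, the gene that carries the mCherry reporter, was at 78.2, 76.4 and 85.9 CPM in VM ZNF711 and 18.9, 22.7 and 49.2 CPM in VM TRAC.

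**Figure D4:**
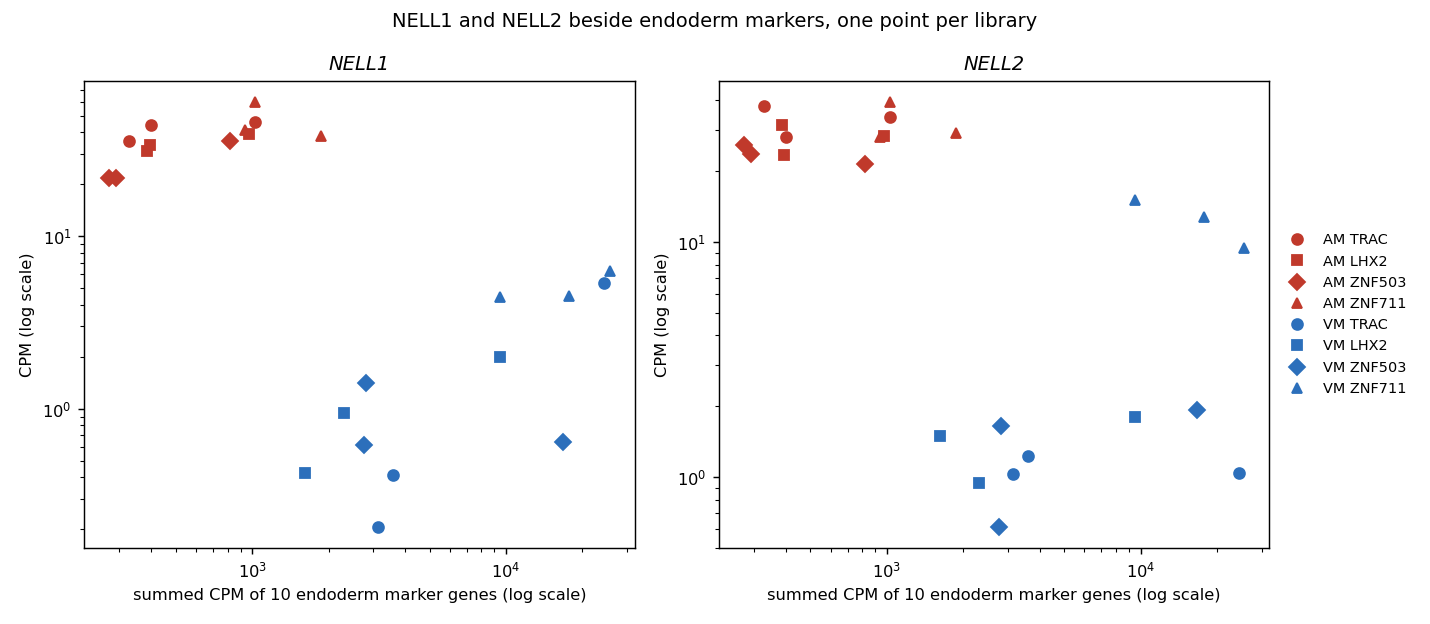
NELL1 (left) and NELL2 (right) in CPM against the summed CPM of 10 endoderm markers, both on log axes, with 1 point per library, red for AM and blue for VM, and a symbol for each target. Among VM libraries with endoderm sums of 9466 CPM or more, NELL2 is at 9.40 CPM or more in the ZNF711 libraries and at 1.93 CPM or less in the others.

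The comparisons of each target with TRAC ask what the CRISPR targeting changed. Besides the comparison just described, none of the 8 genes was called in the other 5: LHX2, ZNF503 and ZNF711 in AM, and LHX2 and ZNF503 in VM. The share of all genes called by edgeR was 0% in each, although in AM LHX2 a replicate block called 201 genes and DESeq2 22, none of the 8 among them. At an unadjusted p below 0.05 there were 0, 1, 2, 0 and 1 of the 8 genes, in that order. Among all 17724 genes there were 1372, 309, 618, 463 and 274. DESeq2 called 0 of the 8 genes in each. In AM ZNF503 the gene was NELL2 (log2 -0.49, SE 0.24). In AM ZNF711 the genes were SLIT2 (-0.43, SE 0.19, unadjusted p 0.0334) and SLIT3 (-0.48, SE 0.21, unadjusted p 0.0285). In VM ZNF503 it was ROBO3 (-1.53, SE 0.57, unadjusted p 0.0134). The edgeR adjusted p of SLIT2, SLIT3 and ROBO3 was 1 in each case. All 5 comparisons share TRAC libraries with the contrasts that NELL2 was chosen on. NELL2 in these counts is therefore a description and no independent result, and no p is given for it. In AM ZNF503 the libraries of NELL1, NELL2 and ROBO1 all lay below those of AM TRAC. That is 3 of 8 genes, against 4.01% of all genes without overlap in that direction. For NELL1 the gap was narrow, 35.5 against 35.7 CPM. In AM ZNF711 2 of 8 genes, SLIT3 and ROBO1, lay wholly below AM TRAC, against 6.13% of all genes. ROBO3 lay wholly below TRAC in AM LHX2 (9.72% of all genes) and in VM ZNF503 (2.3% of all genes).

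Whether a target changed the protocol difference was tested for LHX2 and ZNF503. None of the 8 genes was called by edgeR, with 0% of all genes called, and DESeq2 called 0 of the 8. At an unadjusted p below 0.05 there were 0 of 8 in either, against 660 and 346 of all 17724 genes. Both contrasts include TRAC libraries that NELL2 was chosen on, so NELL2 in them is a description. For NELL2 the protocol difference in LHX2 cells was 4.28 and in TRAC cells 4.89, with standard errors of 0.32 each.

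The wider pathway was followed through lists of genes in the mean AM over VM comparison, in which 34.5% of all 17724 genes were called and the median log2 difference was -0.01. Of 34 SLIT-ROBO co-receptors, SLIT binders, intracellular effectors and transcriptional regulators, all were tested and 20 were called, 11 higher and 9 lower in AM, with a median of 0.07. The largest rise was in ROBO4, the endothelial member of the ROBO family (10.5 ± 3.22 CPM in AM, 2.23 ± 1.05 in VM, SD, n = 12 each, log2 2.23, SE 0.24, edgeR adjusted p 4.81e-08). All 6 endothelial markers that were called of 10 were higher in AM, ROBO4 among them. The largest fall was in LHX2, at 1.76 ± 1.84 CPM in AM and 3.20 ± 1.69 CPM in VM (log2 -1.23, SE 0.37, edgeR adjusted p 0.0105). The fall did not hold in each target: LHX2 was at 0.355 CPM in AM and 5.28 CPM in VM in ZNF711, and at 4.30 CPM in AM and 2.75 CPM in VM in ZNF503. LHX2 is itself one of the targets, and this mean includes the libraries in which it was targeted. Of 6 NELL binders, 4 were tested and 1 was called. It was OTOGL, lower in AM at 10.7 ± 2.69 against 38.7 ± 10.8 CPM (log2 -1.83, SE 0.14, edgeR adjusted p 1.85e-10).

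Other families of axon guidance genes are given for comparison with the 34.5% of all genes called. Of 13 netrin ligands and receptors, 11 were tested and 4 were called, 3 higher and 1 lower, with a median of 0.07, a share near that of all genes. NTN4, a netrin of basement membranes, rose most (log2 1.24, SE 0.29, edgeR adjusted p 0.00154) and the netrin receptor UNC5D fell most (log2 -1.78, SE 0.22, edgeR adjusted p 7.98e-07). Of 14 class 3 semaphorins, neuropilins and plexins, 9 were called, 6 higher and 3 lower, with a median of 0.18. SEMA3A, a repellent for axons, rose from 59.4 ± 19.6 CPM in VM to 226 ± 44.7 CPM in AM (log2 1.94, SE 0.15, edgeR adjusted p 1.37e-09), and SEMA3B fell most (log2 -0.76, SE 0.26, edgeR adjusted p 0.0273). Of 22 ephrins and Eph receptors, 21 were tested and 11 were called, 7 higher and 4 lower, with a median of 0.23. EPHA8 fell most, at 1.83 ± 0.896 CPM in AM against 4.32 ± 3.38 CPM in VM. EPHA10 had the largest fitted rise but only 0.141 CPM on average in VM, under the level of 3 counts, so no fold is given. EPHA7, named after its values were seen, was at 108 ± 17.3 CPM in AM and 30.9 ± 5.76 CPM in VM.

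Genes whose levels followed each member most closely were sought among 11428 genes by Pearson correlation of log2 CPM over the 24 libraries, which share their protocol and replicate structure. Closest to NELL1 were NR2F2 (0.979), MXRA5 (0.974) and SHOX2 (0.968), and closest to NELL2 were NR2F2 (0.958), NR2F2-AS1 (0.956) and NR2F1 (0.954). NR2F2 and NR2F1 encode orphan nuclear receptors that mark atrial cells. By Spearman correlation 0 of these 3 genes remained the closest to NELL2 and 1 of 3 to NELL1. After the mean of each protocol had been subtracted it was 2 of 3 for NELL2 (NR2F2-AS1 at 0.858 and NR2F2 at 0.841) and 0 of 3 for NELL1. That value for NELL2 includes the VM ZNF711 libraries, whose NELL2 levels led to the choice of genes and which stood above VM TRAC in NELL2, NR2F2-AS1 (4.81 to 9.15 against 0.745 to 2.46 CPM) and NR2F2 (76.4 to 85.9 against 18.9 to 49.2 CPM). It supports nothing beyond that choice. Closest to SLIT2 were SMOC1 (0.985), NHSL2 (0.984) and PCDH9 (0.983). For SLIT3 they were CRB2 (0.833), PDE1B (0.829) and EPHB3 (0.829), and for SLIT1 MAPK12 (0.747), SETD1B (0.740) and COG8 (0.735). For ROBO1 they were FAT1 (0.818), EDA2R (0.802) and IGDCC4 (0.801), for ROBO2 PFKFB4 (0.820), DDX42 (0.817) and FN1 (0.792), and for ROBO3 BCL6B (0.706), RECK (0.693) and LRIG3 (0.661). By Spearman correlation 2 of 3 remained for ROBO1, 1 of 3 for SLIT1, SLIT2, ROBO2 and ROBO3, and 0 of 3 for SLIT3. Within protocols 3 of 3 remained for ROBO3, 2 for SLIT1, 1 for SLIT3, and 0 for SLIT2, ROBO1 and ROBO2. Between NELL1 and NELL2 the correlation was 0.936 over all libraries and 0.695 within protocols. Both values include the VM ZNF711 libraries that led to the choice of genes, so they too support nothing beyond it. Over the 12 AM libraries alone the correlation was 0.577. Between NELL1 and SLIT2 the correlation was 0.910 over all libraries and 0.034 within protocols.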

How the data were processed

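RNA-seq was read as gene counts for 24 libraries, deposited by the authors as raw counts in 1 table of the series. The submitters' processing notes name STAR and GRCh38. The counting program, strandedness and annotation release are not given in the sources used here. The labels conflict on the RNA, naming polyA RNA in one place and RiboErase depletion (KAPA, Roche) in another, which bears on reads from introns. Gene symbols and lengths came from GENCODE 29, and genes on the opposite strand held at most 0.235% of the count of the gene they overlap.

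Counts were fitted with edgeR 4.0.16 in R 4.3.3 (quasi-likelihood, robust, TMM factors 0.905 to 1.08, filterByExpr) with 1 mean per group over 24 libraries. Benjamini-Hochberg adjustment ran over 17724 genes in each comparison, and a gene was called below 0.05. The common coefficient of variation was 25% with 16 residual degrees of freedom. CPM use TMM-scaled library sizes, and SE is that of the fitted log2 value.

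The members and lists were chosen with earlier results of these data known. The text names the 8 genes, transcripts within them, the called gene of each list with the largest rise and fall, and the 3 most correlated genes. Same-numbered replicates deviated together (correlation 0.125 to 0.786 in 30 pairs), so a replicate block was run as an alternative that treats them as paired. The main fit has no such block, and its p-values ignore this pairing. Alternatives were other scaling, no filter, DESeq2 1.42.0, the block, only the groups compared, and leaving out libraries. The mean of LHX2 and ZNF503 and the coding length were chosen after seeing the data.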

Additional observations from a re-analysis of the deposited data

Results flagged for a closer look

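The ZNF711 minus TRAC difference of NELL2 in AM, less the same difference in VM, was -3.52 on the log2 scale (SE 0.41). In VM 3 of 3 ZNF711 libraries lay above every TRAC library, and in AM the libraries overlapped. The difference is listed because it was called by edgeR. NELL2 was chosen on this value, so the listing supports nothing beyond that choice and no p is given. With 1 library left out the value stayed between -3.69 and -3.35.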

How the results depend on the processing

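NELL1, NELL2 and SLIT2 were called in all 4 protocol comparisons under each scaling, filter, tool, replicate block and left-out library that was run. For NELL2 in TRAC and ZNF711 this only describes libraries that it was chosen on. In ZNF711 the number of the 8 genes called between protocols was 5, and 3 to 5 with replicates left out, because ROBO1 and ROBO2 were lost without replicate 2. ROBO1 there had an edgeR adjusted p of 0.109 with no filter. With the replicate block ROBO1 was called in ZNF503 (adjusted p 0.0357), and DESeq2 also called it. In the comparisons tested the block changed no other call of the 8 genes besides ROBO1 in the mean of LHX2 and ZNF503 (adjusted p 0.0292), which DESeq2 called too.

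None of the values that changed sign was called under a setting that was run. NELL1 against VM TRAC changed sign when VM TRAC replicate 3 was left out, alone or with replicate 3 of every group. With libraries left out it ran from -1.63 to 1.78 in VM LHX2 against TRAC and from -2.21 to 1.61 in VM ZNF503 against TRAC. In the differences of these contrasts between AM and VM it ran from -2.06 to 1.35 and from -2.48 to 1.70. NELL2 in AM ZNF711 ran from -0.24 to 0.053. By library size scaling SLIT3 was 0.055 in ZNF503 and 0.0024 in the mean of LHX2 and ZNF503. In that mean ROBO3 was -0.00947 by RLE scaling, -0.013 with the replicate block and -0.00972 by DESeq2. With libraries left out, ROBO3 ran from -0.58 to 0.0063 in TRAC. In LHX2 SLIT1 ran from -0.0039 to 0.97, SLIT3 from -0.39 to 0.013 and ROBO2 from -0.32 to 0.18. In ZNF503 SLIT3 ran from -0.23 to 0.13 and ROBO2 from -0.33 to 0.044. SLIT1 in ZNF711 ran from -0.75 to 0.84. In the mean of LHX2 and ZNF503 ROBO2 ran from -0.32 to 0.099 and ROBO3 from -0.40 to 0.39. The causes were not tested.

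In AM LHX2 against TRAC 0 of all genes were called, but 201 with the block, 167 in a fit of those libraries alone, 97 with no filter and 22 by DESeq2. The other counts of 0 over all genes were, over the scalings, filters, tools, block and library choices other than left-out libraries, at most 16 in AM ZNF503, 99 in AM ZNF711, 136 in VM LHX2, 4 in VM ZNF503, and 40 and 3 in the differences between protocols, each with no filter. The number of all genes called in VM ZNF711 against VM TRAC was 3, but 76 by DESeq2, 402 with the block, 495 with no filter and 0 in a fit of those 6 libraries alone. In TRAC the protocol comparison called 2003 genes, 3430 with the block and 995 in a fit of its own libraries. Per coding length NELL2 ranked 5 and SLIT1 6 in VM, the reverse of their order per exon length. Depth limits NELL1 and NELL2 in VM, SLIT1 and ROBO3, where a library held as few as 1 to 10 counts.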
